A study of Mus musculus with 6 samples.

Results

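The SLC25 mitochondrial carriers are membrane transporters, and their genes were followed here in mouse muscle after loss of Igf2, the gene of insulin-like growth factor 2. Members were taken as every protein-coding gene whose symbol is Slc25a followed by a number, which gave 47 of the 54532 genes in the deposited table. RNA was sequenced from 3 Igf2 cKO mice and 3 control mice, with 1 library per sample. Both groups were C57BL/6 mice homozygous for an Igf2 allele whose exon 2 is flanked by loxP sites (Igf2f/f). The Igf2 cKO mice also carried Mck-Cre (Mck-Cre+; Igf2f/f), a Cre recombinase driven by the muscle creatine kinase promoter, which is active in striated muscle fibres. The control mice were Cre-negative littermates (Mck-Cre-; Igf2f/f). The labels name neither the muscle, the age nor the sex. The series gives 3 mice per group and does not mention pooling, so each library was taken as 1 mouse.

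SLC25 carriers sit mostly in the inner mitochondrial membrane and exchange nucleotides, phosphate, amino acids, carboxylates, carnitine esters, metals and cofactors between the cytosol and the matrix. The ADP/ATP carriers swap matrix ATP for cytosolic ADP and supply the contractile machinery of muscle. The ATP-Mg/phosphate carriers, among them Slc25a25, are regulated by calcium and move ATP-Mg against phosphate, which alters the size of the adenine nucleotide pool in the matrix.

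Slc25a25 was the member that rose in Igf2 cKO muscle, and the gene has several annotated starts, so the promoter windows behind its count are shown here. RefSeq (GRCm38.p6) lists 3 windows for it, each of 300 bases and running from 250 bases before a start to 50 after it. The first, chr2:32451421-32451720 on the minus strand, lies at the 5′ end of the gene. The second, chr2:32431102-32431401, has its start 20319 bases downstream of the first. The third, chr2:32424017-32424316, has its start 27404 bases downstream of the first and lies inside the gene, as the second does. It overlaps no annotated exon in GENCODE M21, but a coding transcript start listed there is 61 bases from its start. Capitals mark the full cAMP response element, TGACGTCA, a palindrome that binds CREB and related factors.
Slc25a25 window 1: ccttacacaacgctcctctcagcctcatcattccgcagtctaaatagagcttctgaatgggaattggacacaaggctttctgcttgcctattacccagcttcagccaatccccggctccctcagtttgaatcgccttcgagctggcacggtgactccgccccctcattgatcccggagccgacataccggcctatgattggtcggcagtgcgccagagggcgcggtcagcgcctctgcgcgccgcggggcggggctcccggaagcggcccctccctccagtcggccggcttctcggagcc
Slc25a25 window 2: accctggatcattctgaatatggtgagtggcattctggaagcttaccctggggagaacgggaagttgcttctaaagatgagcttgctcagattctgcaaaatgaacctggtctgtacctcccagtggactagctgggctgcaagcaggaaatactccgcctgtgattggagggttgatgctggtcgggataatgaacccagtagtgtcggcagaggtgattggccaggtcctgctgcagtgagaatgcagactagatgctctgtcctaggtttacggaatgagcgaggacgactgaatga
Slc25a25 window 3: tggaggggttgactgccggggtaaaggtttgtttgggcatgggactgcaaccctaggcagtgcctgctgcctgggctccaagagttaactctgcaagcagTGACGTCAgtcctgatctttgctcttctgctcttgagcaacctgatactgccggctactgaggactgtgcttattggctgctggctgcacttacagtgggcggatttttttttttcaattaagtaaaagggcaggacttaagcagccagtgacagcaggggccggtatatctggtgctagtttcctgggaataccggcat

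A window of Slc25a36, chr9:97110992-97111291 on the minus strand, is shown as the other member window that holds the full element. A window of the paralog Slc25a23, chr17:57059814-57060113 on the minus strand, is shown as one from the ATP-Mg/phosphate set without it.
Slc25a36 window: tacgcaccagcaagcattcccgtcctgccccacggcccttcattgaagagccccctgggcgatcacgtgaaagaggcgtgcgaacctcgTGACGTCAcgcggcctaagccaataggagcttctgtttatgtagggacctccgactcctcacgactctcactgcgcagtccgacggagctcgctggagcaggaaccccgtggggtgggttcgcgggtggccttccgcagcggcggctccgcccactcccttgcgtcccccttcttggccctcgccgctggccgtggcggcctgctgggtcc
Slc25a23 window: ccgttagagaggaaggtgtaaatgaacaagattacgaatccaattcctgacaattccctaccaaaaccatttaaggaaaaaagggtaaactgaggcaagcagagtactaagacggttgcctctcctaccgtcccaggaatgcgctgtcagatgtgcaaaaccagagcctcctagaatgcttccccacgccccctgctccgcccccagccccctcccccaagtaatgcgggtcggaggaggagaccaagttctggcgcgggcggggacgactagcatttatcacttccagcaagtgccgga

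The element begins 150 bases before the start in window 3 of Slc25a25 and 161 bases before the start in the window of Slc25a36. Windows were listed for 36 of the 47 members, 46 windows in all. The full element occurred in 2 of these 46 windows (4.35%) and in 1.79% of all 32851 windows of that length. Its core TGACG, searched on both strands and contained in the full element, occurred in 13 member windows (28.3%) and in 20.8% of all windows. The NR4A element AAAGGTCA occurred in 1 member window, that of Slc25a34, and in 1.51% of all. TATAAA occurred in 2 member windows, those of Slc25a18 and Slc25a21, and in 13.6% of all. A match describes letters in a window, and GENCODE M21 lists 8 coding transcript starts for Slc25a25, which a count per gene does not separate.

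Total counts ranged from 16184371 to 17503334 in Igf2 cKO libraries and from 16335647 to 17905203 in control libraries. The targeted gene, Igf2, had 33, 37 and 42 counts in Igf2 cKO replicates 1 to 3, against 60, 43 and 39 in control replicates 1 to 3. The groups overlapped for Igf2 (log2 fold change -0.31 ± 0.25, adjusted p = 0.751, edgeR). Reads of the floxed exon are not separated from the rest of Igf2 in this count, so the direction of each comparison rests on the libraries' labels. Muscle markers were high in every library, with skeletal actin Acta1 between 33039 and 40707 CPM (counts scaled to a common library size). Igf2 cKO replicate 2 stood apart in fibre type markers. The 6 genes listed as slow fibre markers were Myh7, Myh2, Tnnt1, Tnni1, Atp2a2 and Myl2, of which Myh2 belongs to fast oxidative fibres. None of the 6 was at 0. They summed to 1233, 4538 and 1545 CPM in Igf2 cKO replicates 1 to 3, against 2107, 2435 and 2383 CPM in control replicates 1 to 3. The 6 fast fibre markers summed to between 59005 CPM (replicate 2) and 86273 CPM in Igf2 cKO libraries, against 83086 to 102478 CPM in control libraries. In RNA from whole muscle, fewer cells of a type and less RNA per cell cannot be told apart.

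The family differed widely in level within muscle. Levels between genes are given as the authors' FPKM, which divides a count by gene length and library size. Slc25a4, the ADP/ATP carrier of heart and skeletal muscle, averaged 1280.2 ± 199 FPKM in Igf2 cKO and 1248 ± 177 FPKM in control libraries (SD, n = 3 each) and made up 66.7% of the family's summed FPKM. The phosphate carrier Slc25a3 followed, at 156 ± 39.4 FPKM in Igf2 cKO and 165 ± 19.9 FPKM in control. The oxoglutarate/malate carrier Slc25a11 averaged 121 ± 28.4 FPKM in Igf2 cKO and 128 ± 16.3 FPKM in control. Both came well ahead of the aspartate/glutamate carrier Slc25a12, at 60.2 ± 9.31 FPKM in Igf2 cKO and 64.1 ± 7.70 FPKM in control. These 4 genes held 85.0% of the family's FPKM. Slc25a3 and Slc25a11 are neighbours in this order, and their FPKM ranges over the 6 libraries overlap. By mean over the 6 libraries, 3 members stood at 100 FPKM or more, 8 between 10 and 100, 25 between 1 and 10, and 11 below 1. Slc25a25 ranked 6 of 47 in Igf2 cKO muscle and 27 of 47 in control muscle, while the first 5 ranks held the same genes in the same order in both groups. Together the members took 0.543%, 0.673% and 0.550% of all counts in Igf2 cKO replicates 1 to 3, against 0.501%, 0.586% and 0.572% in control replicates 1 to 3, and these ranges overlap.

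**Figure D1:**
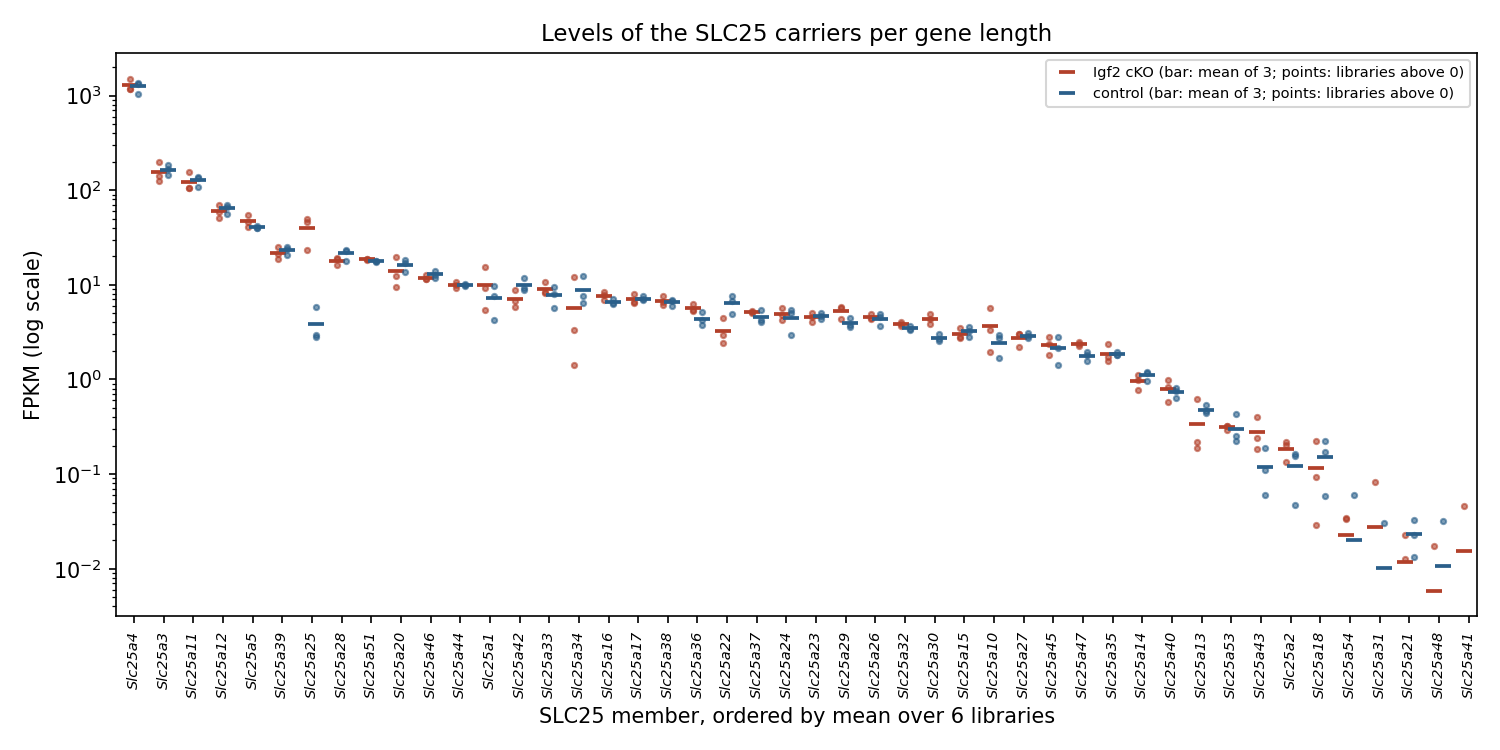
FPKM (log axis) of 46 SLC25 members in Igf2 cKO (red, left of each pair) and control (blue, right) libraries, with bars at the mean of 3 libraries and points for libraries above 0, ordered by the mean over 6 libraries. Slc25a4 stands at the top with 66.7% of the family's FPKM, and Slc25a25 shows the widest gap between the groups among the members tested.

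Of the 47 members, 39 had enough counts to be tested, and 1 was called in Igf2 cKO against control (edgeR quasi-likelihood test, Benjamini-Hochberg adjusted p under 0.05 over 14867 genes). That member, Slc25a25, was higher in Igf2 cKO. No member was called lower, while 10 of all genes were. At this threshold 0.249% of all genes tested were called, 0.182% higher and 0.0673% lower. The median log2 fold change was 0.03 over the 39 tested members and 0.00 over all genes, with 22 members above 0 and 17 below. For 33 members the fold change lay within 0.5 on the log2 scale, and for 33 members the 95% interval lay within 1 log2 unit of 0. At an unadjusted p under 0.05, 7 of 39 members passed, 5 higher and 2 lower, where 9.93% of all genes passed, 5.11% higher and 4.82% lower. The Igf2 cKO and control libraries did not overlap for 8 members, 6 higher and 2 lower, where 15.5% of all genes did not overlap, 7.83% higher and 7.67% lower. The 6 were Slc25a25, Slc25a51, Slc25a36, Slc25a32, Slc25a30 and Slc25a47, and the 2 were Slc25a42 and Slc25a22. DESeq2 called 3 members, Slc25a25 and Slc25a30 higher and Slc25a22 lower, where it called 1.47% of all genes. With the limits given by the series (p under 0.05 without adjustment, more than 1 log2 unit either way), 1 member passed, Slc25a25, where 1.58% of all genes did. Among 86 tested genes of 14 lists set beside the family (partner enzymes, related carriers, fibre and cell type markers), edgeR called 0, DESeq2 called 4 (Cpt1a, Hba-a1, Hbb-bs and Hbb-bt), and 10 had an unadjusted p under 0.05.

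**Figure D2:**
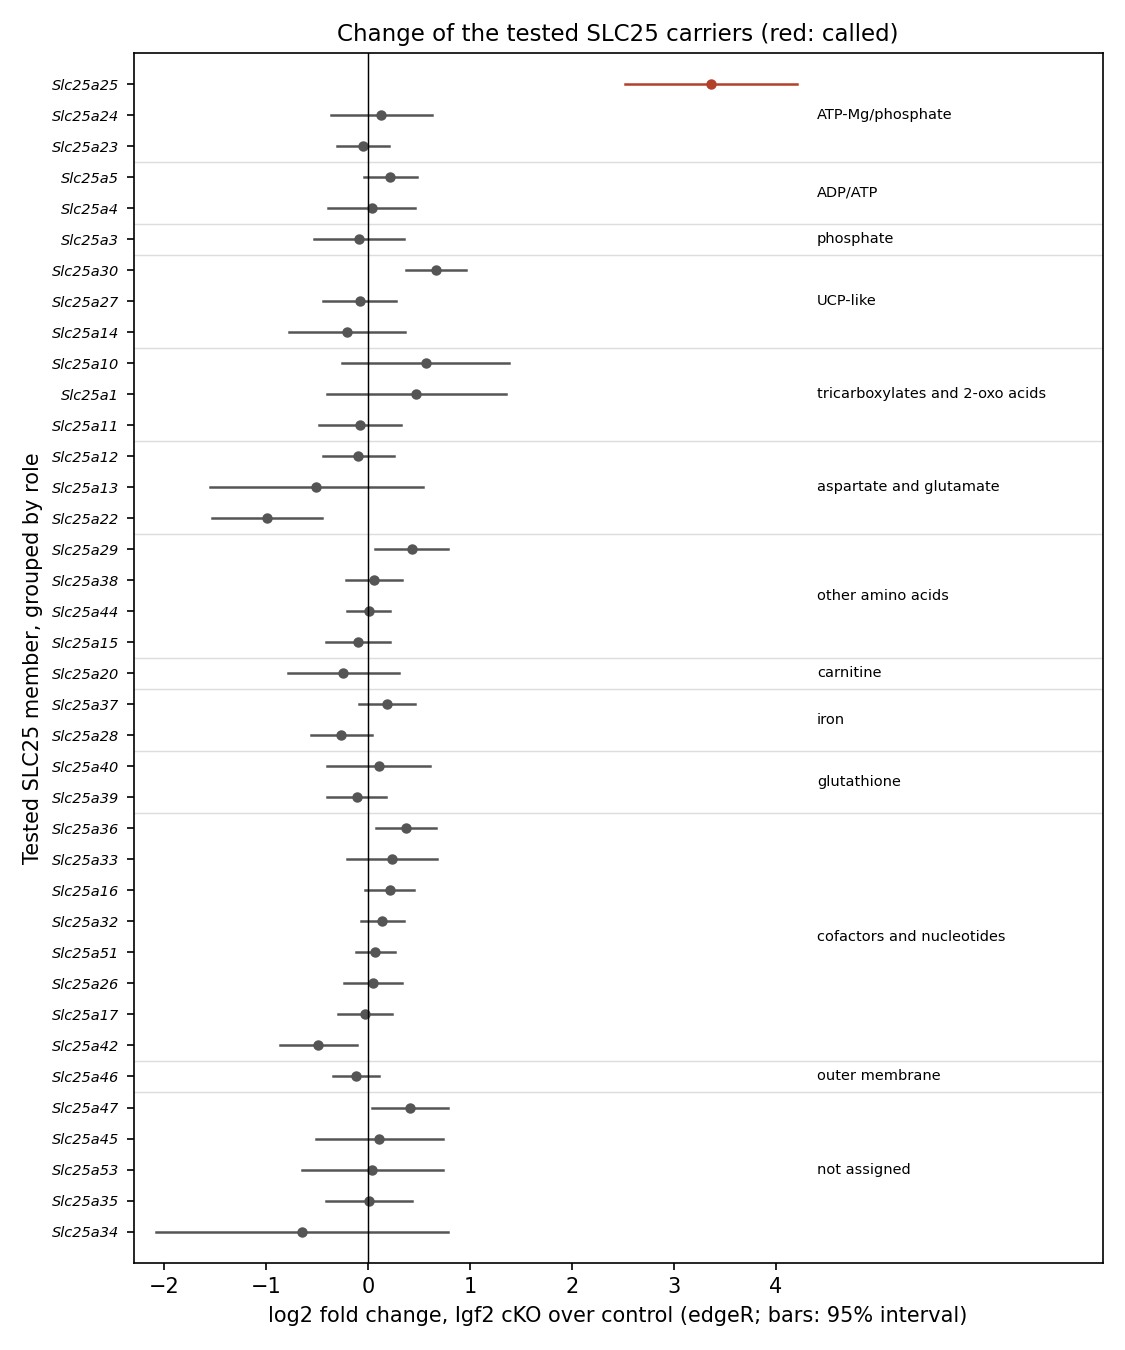
Log2 fold change of Igf2 cKO over control for 38 tested members, grouped by role, with 95% intervals from edgeR. Slc25a25, in red, is the member called, at 3.36, and the intervals of most others include 0.

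Slc25a25 (ENSMUSG00000026819, chr2:32414487-32451445, minus strand) encodes a calcium-regulated ATP-Mg/phosphate carrier, and mice lacking it have reduced physical endurance. It had 6631, 2980 and 6581 counts in Igf2 cKO replicates 1 to 3, against 848, 414 and 344 counts in control replicates 1 to 3. Scaled by library size with TMM factors these were 369.9, 184 and 389 CPM in Igf2 cKO, against 45.9, 23.2 and 22.5 CPM in control. Every Igf2 cKO library stood above every control library, with replicate 2 the lowest in Igf2 cKO and replicate 1 the highest in control. The mean was 314 ± 113 CPM in Igf2 cKO and 30.5 ± 13.3 CPM in control (SD, n = 3 each), a 10.3-fold rise (log2 fold change 3.36 ± 0.37 SE, 95% interval 2.52 to 4.21, adjusted p = 0.0118, edgeR). By size of the fold change it ranked 4 among the 14867 genes tested, and by p it ranked 13. The call was lost when control replicate 2 was left out (log2 fold change 3.19, adjusted p = 0.0727) and when control replicate 3 was left out (3.19, adjusted p = 0.0952). Without Igf2 cKO replicate 2, the library high in slow fibre markers, it was 3.63 (adjusted p = 0.00196), and with the slow fibre score as a covariate it was 3.00 (adjusted p = 0.00576).

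The 5′ end of Slc25a25 overlaps Naif1 on the opposite strand, and the strand setting of the authors' counting is not given. Naif1 had 145, 116 and 129 counts in Igf2 cKO, against 127, 107 and 97 in control. Scaled by library size, every Igf2 cKO library lay above every control library for Naif1, which was not called (log2 fold change 0.25 ± 0.15, adjusted p = 0.631, edgeR). Reads shared between the genes cannot be told apart here.

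The other tested ATP-Mg/phosphate carriers were not called. Slc25a23 had 24.2, 26.7 and 21.5 CPM in Igf2 cKO, against 26.7, 23.4 and 24.9 CPM in control (log2 fold change -0.05 ± 0.11, adjusted p = 0.93). Slc25a24 had 16.6, 19.6 and 14.7 CPM in Igf2 cKO, against 17.3, 18.7 and 10.3 CPM in control (0.13 ± 0.22, adjusted p = 0.902). The groups overlapped for both, and their 95% intervals ran from -0.30 to 0.20 and from -0.37 to 0.62. Slc25a41, the remaining ATP-Mg/phosphate carrier, had 1 count in Igf2 cKO replicate 2 and 0 in the other 5 libraries. Summed over the set, FPKM was 55.9, 34.1 and 57.9 in Igf2 cKO replicates 1 to 3, against 15.8, 12.7 and 10.5 in control replicates 1 to 3. Slc25a25 supplied 83.3%, 68.5% and 85.6% of that sum in Igf2 cKO, against 36.7%, 23.0% and 27.1% in control. Without Slc25a25 the sum was 9.31, 10.7 and 8.36 FPKM in Igf2 cKO, against 10.01, 9.81 and 7.65 FPKM in control, and the groups overlapped. Slc25a25 thus made up most of the set in each Igf2 cKO library and less than Slc25a23 and Slc25a24 together in each control library. In CPM, which is not divided by gene length, the log2 ratio of Slc25a25 to Slc25a23 averaged 3.63 ± 0.74 in Igf2 cKO and 0.21 ± 0.50 in control. The ratio to Slc25a24, also in CPM, averaged 4.15 ± 0.80 in Igf2 cKO and 0.95 ± 0.57 in control (SD, n = 3 each). These ratios compare the groups and do not rank the genes by level. Both differences gave p = 0.1 in a two-sided exact permutation test, the smallest that 3 against 3 libraries allow (0.1 after adjustment over the 2 ratios). Slc25a25 alone already set the groups apart, so this test adds no support of its own.

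**Figure D3:**
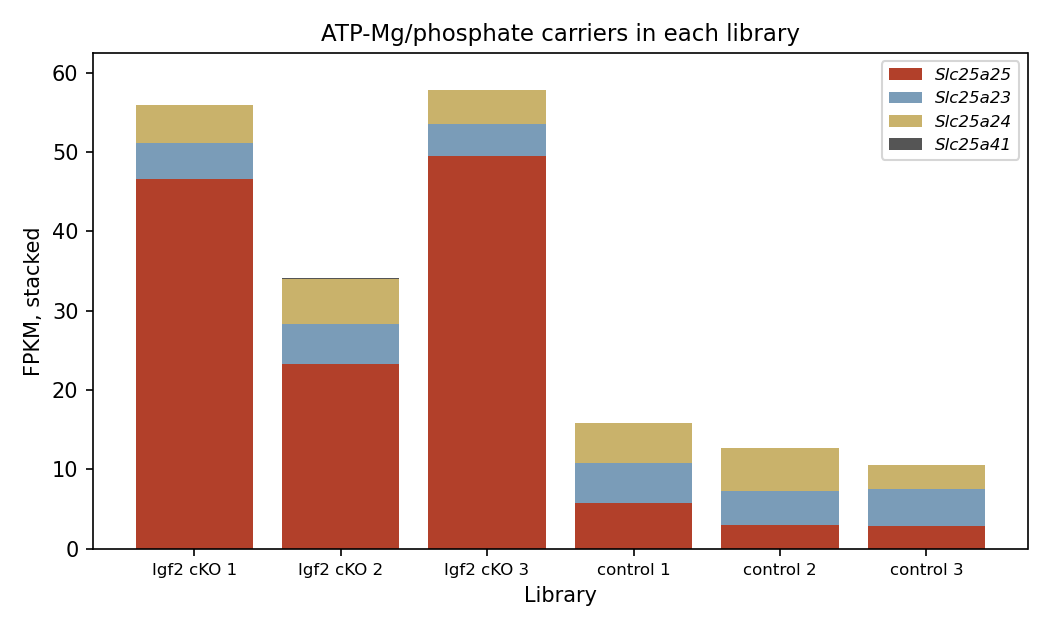
Stacked FPKM of the 4 ATP-Mg/phosphate carriers in each library, Igf2 cKO left and control right. Slc25a25 makes up 68.5% to 85.6% of the bar in Igf2 cKO libraries and 23.0% to 36.7% in control libraries, and the rest of the bar is 8.36 to 10.7 FPKM in Igf2 cKO and 7.65 to 10.01 FPKM in control.

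The ADP/ATP and phosphate carriers, which together feed ATP synthesis, include the most abundant members, Slc25a4 and Slc25a3, and none was called. Slc25a4 had 2767, 3572 and 2743 CPM in Igf2 cKO, against 2476, 3157 and 3239 CPM in control (log2 fold change 0.03 ± 0.19, 95% interval -0.39 to 0.46, adjusted p = 0.975, edgeR). Slc25a5, the isoform of proliferating cells, had 68.5, 89.8 and 75.9 CPM in Igf2 cKO, against 65.9, 68.8 and 66.6 CPM in control (0.22 ± 0.11, adjusted p = 0.586). Igf2 cKO replicate 2 was the highest library for both genes. Slc25a4 made up 96.2% to 96.6% of the summed FPKM of the ADP/ATP carriers in Igf2 cKO libraries, against 96.3% to 97.1% in control libraries. The testis isoform Slc25a31 had at most 3 counts in a library. Processed copies of Slc25a5 can share its reads, and the listed one, Slc25a5-ps, had between 0 and 3 counts. Slc25a3 had 702, 1118 and 785 CPM in Igf2 cKO, against 807, 934 and 1028 CPM in control (-0.09 ± 0.19, adjusted p = 0.929). Igf2 cKO replicates 1 and 3 lay below every control library for Slc25a3 and replicate 2 above every one. Among 14 other genes of adenine nucleotide and phosphate handling (creatine kinases, adenylate kinases, porins, ATP synthase), 13 were tested and 0 were called, with a median log2 fold change of 0.00. The smallest p values there belonged to the porin Vdac3 (0.17, adjusted p = 0.744) and the matrix kinase Ak3 (-0.09, adjusted p = 0.805).

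The carriers of the malate-aspartate shuttle, which brings reducing equivalents from glycolysis into mitochondria, had no call. Slc25a11 had 223, 328 and 224 CPM in Igf2 cKO, against 233, 289 and 296 CPM in control (log2 fold change -0.08 ± 0.18, adjusted p = 0.933, edgeR). Slc25a12, the calcium-regulated aspartate/glutamate carrier of muscle and brain, had 380.4, 516 and 436 CPM in Igf2 cKO, against 411, 491 and 520.2 CPM in control (-0.09 ± 0.15, adjusted p = 0.896). Both genes overlapped between the groups. The other isoform, Slc25a13, best known from liver, was chosen after its values were seen. It had 0.725, 2.35 and 0.828 CPM in Igf2 cKO, against 1.68, 2.07 and 1.77 CPM in control (-0.51 ± 0.46, adjusted p = 0.786). Igf2 cKO replicate 2 was the highest of the 6 and replicates 1 and 3 the lowest, and without replicate 2 the log2 fold change was -1.24 (adjusted p = 0.281). Slc25a11 overlaps Rnf167 on the opposite strand, which had 611 to 814 counts in a library. Of 6 enzymes of the malate-aspartate and glycerol phosphate shuttles tested, 0 were called, with a median of -0.06. The smallest p values belonged to Gpd2 (-0.14, adjusted p = 0.893) and Gpd1 (-0.08, adjusted p = 0.934), both of the glycerol phosphate shuttle.

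Slc25a22, which imports glutamate into the matrix, had the largest difference below 0 among the tested members. It had 14.6, 26.9 and 17.6 CPM in Igf2 cKO, against 30.04, 41.1 and 46.2 CPM in control. Every Igf2 cKO library lay below every control library, and replicate 2 was again the highest in Igf2 cKO. The mean was 19.7 ± 6.41 CPM in Igf2 cKO and 39.1 ± 8.27 CPM in control (SD, n = 3 each), with a log2 fold change of -0.99 ± 0.24 (95% interval -1.53 to -0.46) that edgeR did not call (adjusted p = 0.194). DESeq2 called it (adjusted p = 0.00655), as did edgeR without Igf2 cKO replicate 2 (-1.28, adjusted p = 0.0338) and edgeR without a low-count filter (adjusted p = 0.000654). Without Igf2 cKO replicate 2, edgeR also called 5 genes of the slow fibre list, Atp2a2, Myh7, Myl2, Tnni1 and Tnnt1. With the slow fibre score as a covariate in all 6 libraries, Slc25a22 had -0.83 (adjusted p = 0.117) and was not called. Slc25a18, the other glutamate carrier, had 1 to 8 counts and was not tested.

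**Figure D4:**
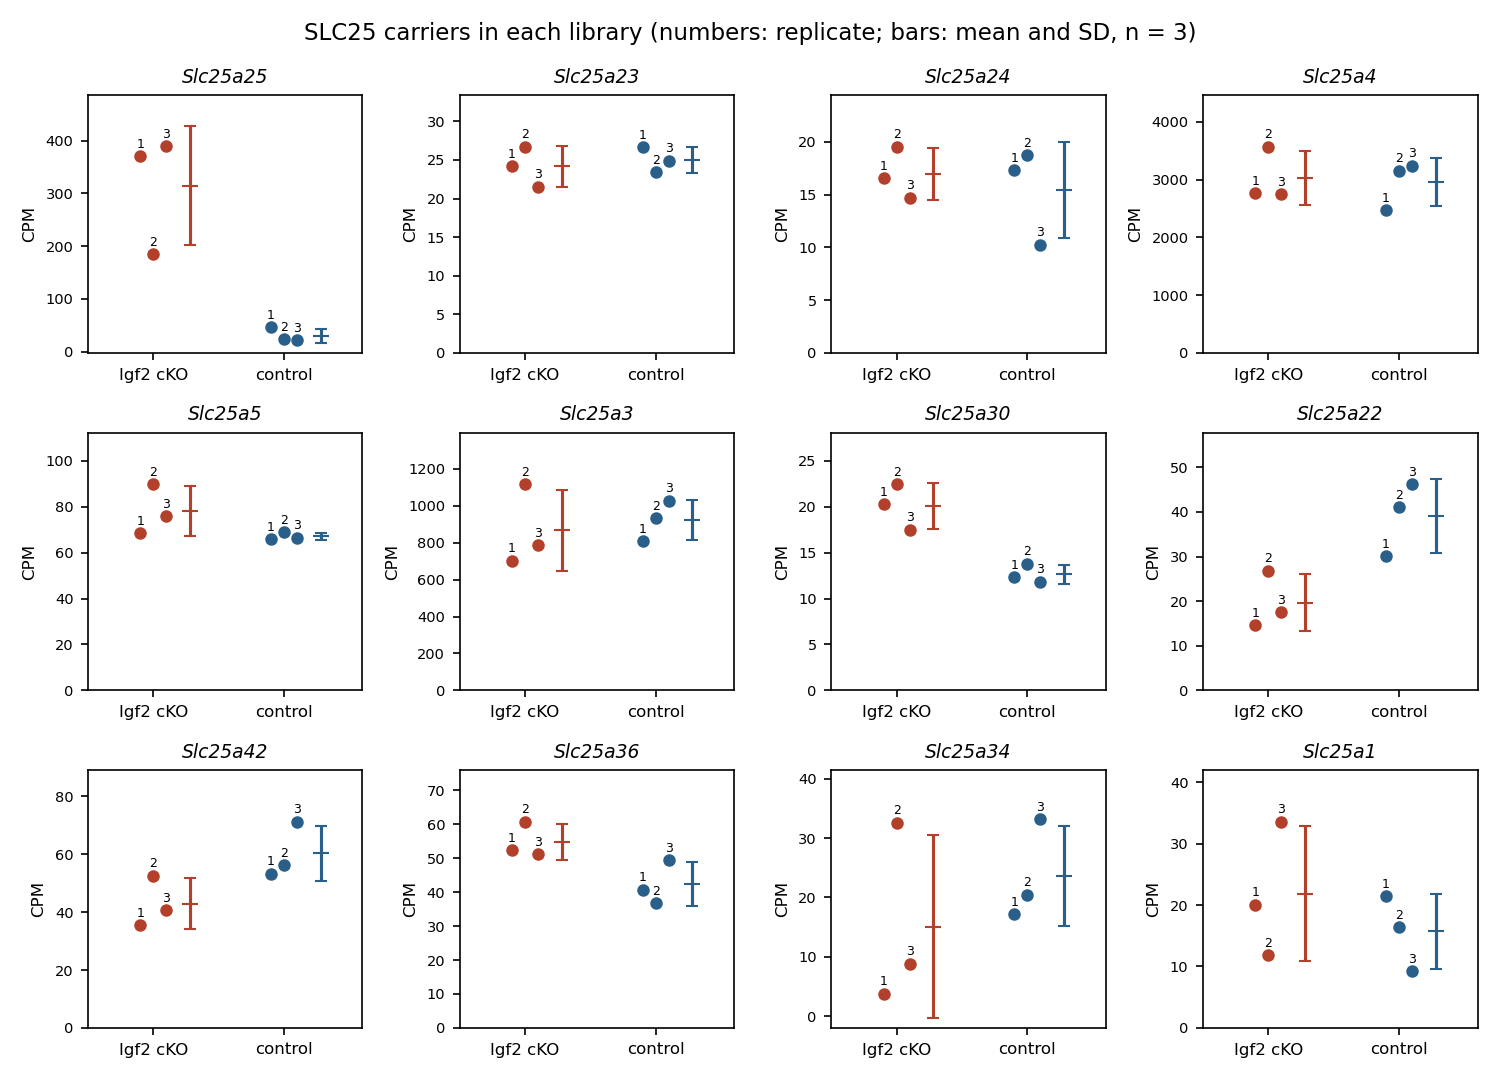
CPM of 12 SLC25 members in each library (points, numbered by replicate) with mean and SD (bars, n = 3), Igf2 cKO left and control right, each panel on its own scale. For Slc25a25 and Slc25a30 all Igf2 cKO points lie above the control points, for Slc25a22 and Slc25a42 below them, and for Slc25a34 and Slc25a1 the Igf2 cKO points spread widely, with an SD bar that reaches below 0 for Slc25a34.

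Carriers of citrate and dicarboxylates were highest in 1 Igf2 cKO library. Both are named here after their values were seen. Slc25a1, which exports citrate for lipid synthesis, had 20.1, 11.9 and 33.6 CPM in Igf2 cKO, against 21.4, 16.4 and 9.22 CPM in control (log2 fold change 0.47 ± 0.39, adjusted p = 0.755, edgeR). Slc25a10, the dicarboxylate carrier, had 11.7, 6.81 and 19.5 CPM in Igf2 cKO, against 10.2, 9.51 and 5.89 CPM in control (0.56 ± 0.36, adjusted p = 0.671). Igf2 cKO replicate 3 was the highest library for both, and without it the log2 fold changes were 0.02 and 0.11. The adipocyte markers with the smallest p were Lep and Cidec. Lep had 5.69, 0.743 and 39.1 CPM in Igf2 cKO, against 9.36, 4.36 and 0.458 CPM in control (adjusted p = 0.698). Cidec had 28.4, 13.0 and 85.7 CPM in Igf2 cKO, against 35.1, 23.5 and 6.67 CPM in control (adjusted p = 0.721). Igf2 cKO replicate 3 was the highest library for both and control replicate 3 the lowest. Of the 6 adipocyte markers 5 were tested, 0 were called and Ucp1 was at 0 in every library. Over the 5 tested the median log2 fold change was 0.93. Summed, they gave 3185 CPM, 1754 CPM and 3623 CPM in Igf2 cKO replicates 1 to 3, against 3066 CPM, 2811 CPM and 2480.4 CPM in control replicates 1 to 3. By this sum Igf2 cKO replicate 2 was the lowest library and replicate 1 came close to replicate 3. Lep and Cidec were only a small part of the sum. How much of the sum came from adipocytes was not tested, so it does not rank the libraries by adipocyte content. The part of adipocyte RNA in the values of these carriers was not tested. Slc25a21, the oxodicarboxylate carrier, had at most 3 counts.

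Among the carriers related to uncoupling proteins, Slc25a30, described as a kidney mitochondrial carrier, had the second smallest p of the family. It had 20.3, 22.5 and 17.5 CPM in Igf2 cKO, against 12.3, 13.8 and 11.8 CPM in control. Every Igf2 cKO library lay above every control library. The mean was 20.1 ± 2.49 CPM in Igf2 cKO and 12.7 ± 1.03 CPM in control (SD, n = 3 each), with a log2 fold change of 0.66 ± 0.13 (95% interval 0.37 to 0.96) that edgeR did not call (adjusted p = 0.118). DESeq2 called it (adjusted p = 0.0104), as did edgeR without a low-count filter (adjusted p = 0.0112). Slc25a14 and Slc25a27, both known from brain, had log2 fold changes of -0.21 (adjusted p = 0.852) and -0.08 (adjusted p = 0.916). Of 9 carriers of the family or of mitochondrial transport with other symbols, 8 were tested and 0 were called, with a median of -0.03. Ucp3, the uncoupling protein of skeletal muscle, had 53.3, 139 and 111 CPM in Igf2 cKO, against 155, 199 and 224 CPM in control (-0.93 ± 0.31, adjusted p = 0.352). The groups did not overlap for Ucp3, with replicate 1 the lowest of the Igf2 cKO libraries. Sfxn3, a sideroflexin, had -0.30 (adjusted p = 0.478).

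The carnitine/acylcarnitine carrier Slc25a20, which admits long-chain fatty acids to the matrix for oxidation, was chosen after its values were seen. It had 46.6, 95.2 and 60.1 CPM in Igf2 cKO, against 66.8, 83.7 and 88.9 CPM in control (log2 fold change -0.25 ± 0.24, adjusted p = 0.805, edgeR). Igf2 cKO replicate 2 was the highest of the 6 libraries and replicates 1 and 3 the lowest, and without replicate 2 the fold change was -0.58 (adjusted p = 0.241). Of 6 other genes of the carnitine shuttle tested, 0 were called, with a median of -0.09. Cpt1a, an acyltransferase ahead of the carrier, had 23.5, 30.3 and 34.6 CPM in Igf2 cKO, against 59.2, 53.2 and 43.7 CPM in control. Its log2 fold change was -0.82 ± 0.16 (adjusted p = 0.13, edgeR). The groups did not overlap for Cpt1a, and DESeq2 called it. Cpt1b, with only 31 to 72 counts in a library, had -0.39 (adjusted p = 0.752, edgeR). The reason for its low count was not tested, so this count does not rank Cpt1b below Cpt1a in muscle.

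Amino acid carriers had no call. Slc25a29, which moves basic amino acids, had 11.4, 15.3 and 14.7 CPM in Igf2 cKO, against 9.80, 9.40 and 11.6 CPM in control (log2 fold change 0.43 ± 0.16, adjusted p = 0.406, edgeR). Control replicate 3 lay just above Igf2 cKO replicate 1, so the groups overlapped. The glycine carrier Slc25a38 (0.06 ± 0.12), the branched-chain amino acid carrier Slc25a44 (0.01 ± 0.09) and the ornithine carrier Slc25a15 (-0.10 ± 0.14) lay close to 0. Their adjusted p values ran from 0.873 to 0.988. The second ornithine carrier, Slc25a2, had 1 to 5 counts.

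The mitoferrins Slc25a28 and Slc25a37 carry iron to the matrix for haem and iron-sulphur clusters. Slc25a28, the form outside red blood cells, had 29.1, 28.3 and 24.2 CPM in Igf2 cKO, against 27.3, 35.0 and 35.8 CPM in control (log2 fold change -0.26 ± 0.13, adjusted p = 0.558, edgeR). Control replicate 1 lay within the Igf2 cKO range. Slc25a37, the erythroid form, averaged 31.2 ± 0.550 CPM in Igf2 cKO and 27.5 ± 4.39 CPM in control (SD, n = 3 each; 0.18 ± 0.12, adjusted p = 0.679). Of 7 erythroid markers 6 were tested and edgeR called 0, with a median log2 fold change of -0.60. By edgeR 5 of them had an unadjusted p under 0.05, where 9.93% of all genes did. DESeq2 called Hba-a1, Hbb-bs and Hbb-bt. The erythroid markers summed to 314 to 359 CPM in Igf2 cKO, against 451 to 621 CPM in control. Of 11 genes of mitochondrial iron and haem handling, 0 were called, with a median of -0.03. Alas2, the erythroid form of the first enzyme of haem synthesis, had 7.31, 8.11 and 6.74 CPM in Igf2 cKO, against 15.05, 10.9 and 10.3 CPM in control (-0.71 ± 0.18, adjusted p = 0.218), and Cpox had -0.11 (adjusted p = 0.755). The part of residual blood in these values was not tested.

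Slc25a39 and Slc25a40 import glutathione, the main thiol antioxidant. Slc25a39 had 52.7, 69.1 and 57.7 CPM in Igf2 cKO, against 57.3, 67.1 and 69.5 CPM in control (log2 fold change -0.11 ± 0.13, adjusted p = 0.842, edgeR). For Slc25a40 the log2 fold change was 0.10 ± 0.22 (adjusted p = 0.927). Both overlapped between the groups. Per gene length Slc25a39 was far more abundant, at 21.6 ± 3.05 FPKM in Igf2 cKO and 23.3 ± 2.35 FPKM in control, while Slc25a40 averaged 0.795 ± 0.201 FPKM in Igf2 cKO and 0.737 ± 0.0935 FPKM in control (SD, n = 3 each).

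All 9 carriers of cofactors and nucleotides were tested and 0 were called, with log2 fold changes between -0.49 and 0.37. Slc25a42, a coenzyme A carrier, had 35.6, 52.6 and 40.7 CPM in Igf2 cKO, against 53.3, 56.3 and 71.3 CPM in control (-0.49 ± 0.17, adjusted p = 0.372, edgeR). Every Igf2 cKO library lay below every control library, but replicate 2 of Igf2 cKO and replicate 1 of control were nearly equal. Slc25a36, a pyrimidine nucleotide carrier, had 52.3, 60.8 and 51.1 CPM in Igf2 cKO, against 40.8, 36.8 and 49.4 CPM in control (0.37 ± 0.13, adjusted p = 0.38). The groups did not overlap. An antisense gene inside it, Gm16185, had 74, 104 and 85 counts in Igf2 cKO, against 59, 37 and 61 in control (0.76 ± 0.29, adjusted p = 0.426), and without strand its reads and those of Slc25a36 cannot be told apart. Slc25a16, whose yeast counterpart is linked to coenzyme A, had 40.3, 33.2 and 37.6 CPM in Igf2 cKO, against 30.4, 31.2 and 34.3 CPM in control (0.21 ± 0.10, adjusted p = 0.556), with overlap. The NAD carrier Slc25a51 averaged 104 ± 1.21 CPM in Igf2 cKO and 98.8 ± 2.14 CPM in control (SD, n = 3 each; 0.07 ± 0.08, adjusted p = 0.853). The folate and FAD carrier Slc25a32 (0.14 ± 0.09) and the second pyrimidine nucleotide carrier Slc25a33 (0.23 ± 0.19) were not called either. The S-adenosylmethionine carrier Slc25a26 (0.05 ± 0.12) and the peroxisomal member Slc25a17 (-0.03 ± 0.12) lay closer to 0. Slc25a46, an outer membrane member that acts in mitochondrial shape, had -0.12 ± 0.10 (adjusted p = 0.755).

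Members with no transport role assigned here numbered 8, of which 5 were tested and 0 called. Slc25a47 had 7.59, 6.74 and 7.04 CPM in Igf2 cKO, against 4.76, 5.43 and 5.89 CPM in control (log2 fold change 0.41 ± 0.16, adjusted p = 0.45, edgeR), with no overlap. Slc25a34 was chosen after its values were seen, for its spread. It had 3.79, 32.6 and 8.87 CPM in Igf2 cKO, against 17.2, 20.5 and 33.2 CPM in control (-0.65 ± 0.63, adjusted p = 0.803). Replicate 2 of Igf2 cKO was 8.60 times replicate 1, and without replicate 2 the log2 fold change was -1.90 (adjusted p = 0.116). Slc25a45, Slc25a53 and Slc25a35 had log2 fold changes of 0.11, 0.04 and 0.01. The 8 untested members, Slc25a43, Slc25a2, Slc25a18, Slc25a54, Slc25a31, Slc25a21, Slc25a48 and Slc25a41, had at most 12 counts in any library, so a difference was not detectable at this depth.

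Igf2 cKO replicate 2 was the highest of the Igf2 cKO libraries for 24 of the 39 tested members, where it was the highest for 36.2% of all genes, and the lowest for 12 members, where it was the lowest for 35.6% of all genes. For 8 members, Slc25a3, Slc25a11, Slc25a20, Slc25a46, Slc25a17, Slc25a34, Slc25a15 and Slc25a13, replicates 1 and 3 of Igf2 cKO both lay below every control library while replicate 2 did not. That pattern held for 5.73% of all genes. Slow fibre markers were low in replicates 1 and 3 and high in replicate 2 in the same way, and a slow fibre score was added to the fit as a covariate. With it the log2 fold change was 0.05 for Slc25a3, 0.05 for Slc25a11, -0.07 for Slc25a20, -0.44 for Slc25a34 and -0.27 for Slc25a13. Slc25a46, Slc25a17 and Slc25a15 were not followed one by one with this covariate. The score runs with the pattern by which the 8 members were picked, and it was chosen with the library values known. A smaller fold change with it can follow from that choice alone. The part of fibre type in the values of all 8 members was not tested. Slc25a25 ran the other way, lowest in replicate 2 and higher in replicates 1 and 3 of Igf2 cKO. The median coefficient of variation of the tested members was 14.4% in Igf2 cKO and 12.0% in control.

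**Figure D5:**
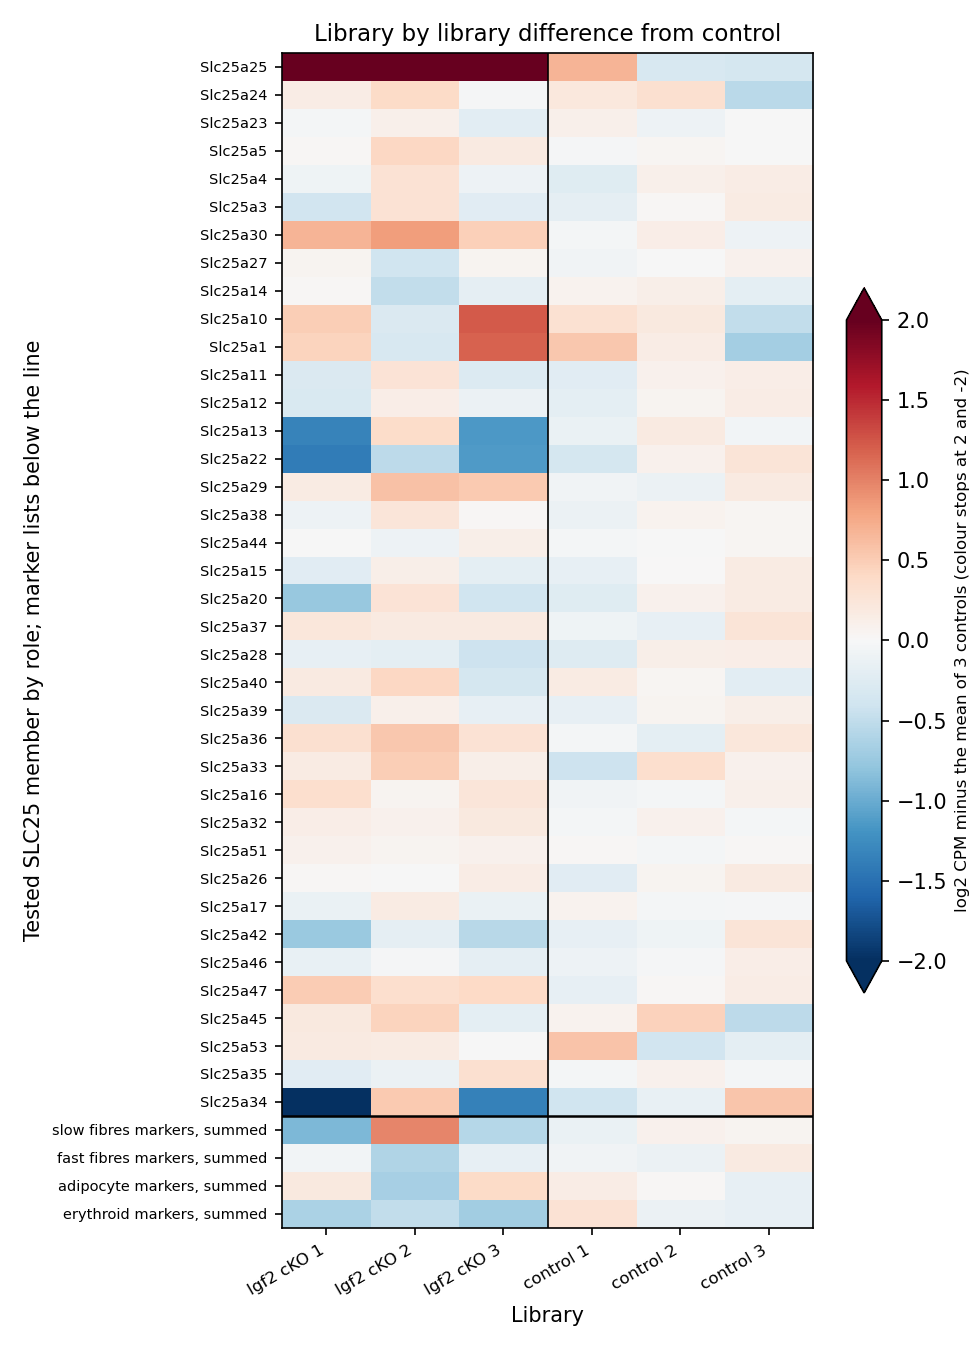
Log2 CPM of 38 tested members in each library minus the mean of the 3 control libraries, Igf2 cKO left of the line, with summed slow fibre, fast fibre, adipocyte and erythroid markers below; colour stops at 2 and -2. Slc25a25 is dark red in all 3 Igf2 cKO libraries, and Slc25a34, Slc25a13 and the slow fibre markers are blue in replicates 1 and 3 and red in replicate 2.

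The authors' deposited table compares each Igf2 cKO library with the control library of the same number, 1 against 1, and these comparisons have no replicate check. In the authors' deposited table Slc25a25 had log2 fold changes of 3.01, 2.99 and 4.11 for numbers 1 to 3, with adjusted p values of 2.3e-08, 7.61e-08 and 1.03e-14. The authors' deposited table has an adjusted p under 0.05 for 2, 1 and 4 members, where 0.448%, 0.346% and 0.716% of all listed genes pass. Slc25a34 passed for number 1 (-2.18) and number 3 (-1.90) in the authors' deposited table, but had 0.67 for number 2. Slc25a1 (1.87) and Slc25a10 (1.73) passed for number 3 alone in the authors' deposited table.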

How the data were processed

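RNA from muscle of 3 Igf2 cKO and 3 control mice was isolated with Trizol and sequenced by a commercial service on a NovaSeq machine, per the labels' protocols. The sources used here name no aligner, counter, strand setting, genome build or annotation. For each gene and library the deposited table gives, per the file headers, a raw count and an FPKM, which the authors scaled by gene length and library size. It also holds, from the authors, a log2 fold change, a p-value and its adjusted form for 3 comparisons, each of 1 Igf2 cKO library with the like-numbered control library. Per-sample values in 6 further columns, whose names match no sample title, were left unused. Coordinates are those of the table, and 44 of the 47 members have the same chromosome, start and end in GENCODE M21 (GRCm38).

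Groups came from the sample titles. Counts were tested over the whole table in edgeR 4.0.16 (R 4.3.3; quasi-likelihood, genotype alone), after filterByExpr (minimum count 10) and TMM scaling, with Benjamini-Hochberg adjustment over 14867 genes. Calls needed an adjusted p under 0.05. Fold changes put Igf2 cKO over control on the log2 scale. Their standard errors and 95% intervals follow from F. CPM used library sizes multiplied by the TMM factors. FPKM served only to set genes side by side. Promoter windows came from RefSeq, and motifs were searched on both strands.

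The members, the lists of other genes and the tests were chosen with earlier results of these data known. Values in every library were given for members called, the ATP-Mg/phosphate and ADP/ATP carriers, Slc25a3, the 6 members with the highest FPKM and the 10 with the smallest p. From each list of other genes the 2 with the smallest p were eligible, and the text says where a member falls outside this rule. One member and a gene of another list are not reported here by name or in the figures, though counts and medians include them.

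Alternatives were DESeq2-type and upper quartile size factors, no low-count filter, a filter at 1 CPM in 3 libraries, limma-voom (limma 3.58.1), DESeq2 1.42.0, the replicate number as a block, the limits given by the series (p under 0.05 without adjustment, more than 1 log2 unit either way), leaving out each library, and, added after the data had been seen, a slow fibre score (mean log2 CPM, prior count 2) as a covariate. The fit was also tested on simulated counts for the 14867 genes of this comparison. It called 11.9% of 67 genes changed 1.5-fold, 64.2% of 67 changed 2-fold and 92.4% of 66 changed 4-fold. Of its 124 calls, 12 fell on unchanged genes. The data gave 37 calls. The share found depends on how many genes change, so these shares do not give the power in the data.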

Additional observations from a re-analysis of the deposited data

How the results depend on the processing

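Slc25a25 kept its direction under all 15 alternatives run, with log2 fold changes between 3.00 and 3.78. The limits given by the series repeat the main fit. With groups that do not overlap, leaving out a library could not turn the direction, so the kept direction adds little there. The edgeR call was lost without control replicate 2 (adjusted p = 0.0727) and without control replicate 3 (adjusted p = 0.0952), when fewer libraries remained. Against 1 member and 37 genes called by edgeR, DESeq2 called 3 members and 214 genes, edgeR without a low-count filter 3 members and 282 genes, the slow fibre covariate 1 member and 68 genes, and the limits given by the series 1 member and 235 genes. Leaving out a library gave 0 to 2 members and 8 to 68 genes. For the lists of other genes, with 0 called by edgeR, DESeq2 called 4, no low-count filter 7 (Alas2, Cpt1a, Hba-a1, Hbb-bs, Hbb-bt, Myod1 and Ucp3) and the series' limits 1, and leaving out a library gave 0 to 5, the 5 (Atp2a2, Myh7, Myl2, Tnni1 and Tnnt1) without Igf2 cKO replicate 2. The causes were not tested. Single members were followed over the alternatives for 22 of the 39 tested. Among these 22, signs turned for 6 whose fold change lay near 0. With the slow fibre covariate Slc25a23 had 0.0106, Slc25a3 0.0498 and Slc25a11 0.0524. Leaving out a library moved Slc25a23 between -0.128 and 0.0261, Slc25a24 between -0.0885 and 0.28, Slc25a4 between -0.102 and 0.105, Slc25a3 between -0.311 and 0.0443, Slc25a11 between -0.286 and 0.0200 and Slc25a12 between -0.216 and 0.00571. The median over tested members stayed between -0.04 and 0.06. No scaling moved the median of all genes by over 0.1.

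Same-numbered libraries deviated together with correlations of 0.160, 0.058 and -0.0448 over genes, so the numbers were not taken to pair the mice. With the replicate number as a block, 1 member and 35 genes were called, Slc25a25 had 3.36 (adjusted p = 0.00615), and the block changed no other call among the members. Depth limited the 8 untested members.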

Other observations

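Mitochondrial calcium uptake was followed because Slc25a25 and Slc25a12 are regulated by calcium. Whether uptake into the matrix bears on these carriers was not tested. Of 7 genes of the uniporter and its regulators, 7 were tested and 0 were called, with a median log2 fold change of -0.02. Mcub, a uniporter subunit that dampens uptake, had the smallest p (log2 fold change -0.32, adjusted p = 0.795, edgeR). The summed level of the list was 320.2 to 340.3 CPM in Igf2 cKO libraries and 306 to 334 CPM in control libraries, and these ranges overlap.

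Marker lists of other cell types were also without calls. Summed macrophage markers were 124 to 178 CPM in Igf2 cKO and 87.0 to 195 CPM in control, neutrophil markers 1.17 to 2.54 CPM in Igf2 cKO and 1.57 to 3.47 CPM in control, and endothelial markers 576 to 958 CPM in Igf2 cKO and 890.3 to 999 CPM in control. The muscle markers summed to 48559 to 50568 CPM in Igf2 cKO libraries and 51322 to 58237 CPM in control libraries, ranges that do not overlap, and 0 of the 5 were called.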
